A study of Mus musculus with 24 samples.

Results

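The 10 mouse genes Gsta2, Gsta3, Gsta4, Gstm1, Gstm2, Gstp1, Gsto1, Gstt1, Mgst1 and Mgst3 encode cytosolic and microsomal glutathione transferases, and their RNA was measured by bulk RNA-seq in 4 mouse tumour cell lines. They were picked by symbol from the 34866 genes listed for at least 1 line. Gsta2 was included because its change is among the largest increases in the AKR line, so the AKR values helped to choose the genes. Values measured in AKR are therefore given as a description, with no p-value, and nothing is read from the number of genes past the threshold there. Gsta2 ranked 57 of 15882 tested genes by fold change in AKR, and 54 among the 3332 that passed the threshold upward.

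The lines were MC38, from a colon adenocarcinoma, LLC1, the Lewis lung carcinoma, AKR, from an esophageal carcinoma, and Hepa1-6, from a hepatocellular carcinoma. Each carried either a guide RNA against B2m (sgB2m), the gene of the MHC class I light chain, or a non-targeting guide (sgNT), with 3 libraries per line and guide and 24 in all. Every group carried a guide, and all were grown in DMEM with serum and antibiotics. It is not stated whether cells of 1 clone or a pool of edited cells were used, or whether the 3 libraries of a group came from separate cultures, so the p-values measure the spread between these libraries, which may be technical.

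Reads per library ranged from 25 to 49.7 M. B2m was 3.43-fold lower in sgB2m than in sgNT of MC38 and 3.28-fold lower in LLC1. The AKR decrease was 2.98-fold and the Hepa1-6 decrease 2.56-fold, with no overlap between the groups of any line, and B2m RNA was reduced rather than absent. Of 7 hepatocyte markers, 5 reached a mean log2 value of 6 in Hepa1-6, led by Afp. In MC38, 1 of 5 intestinal markers reached that level, Lgals4 at 6.73, while Cdx2, Cdh17 and Krt20 had no entry. In LLC1, 2 of 5 alveolar markers did, Napsa and Abca3, while Nkx2-1 had no entry. In AKR, 2 of 7 squamous markers did, Krt13 at 8.27 and Sox2, while Krt5, Krt6a and Ivl had no entry. In each line some markers of its labelled origin thus reached 6 and others did not. Markers of other origins were high too, so these lists do not single out the labelled origin. Intestinal markers reached 6 for 3 of 5 in AKR, led by Krt20 at 8.26, and 4 of 5 in Hepa1-6, led by Cdh17 at 14.64. The squamous marker Krt14 stood at 10.86 in MC38, where 5 of 5 fibroblast markers reached 6. Abca3 stood at 10.35 in LLC1, 9.82 in MC38, 10.95 in AKR and 11.70 in Hepa1-6. Markers of T and NK cells had no entry in LLC1, AKR and Hepa1-6. In MC38 only Cd4 had an entry, at no more than 7.59 normalised counts summed over the list.

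Glutathione transferases join the tripeptide glutathione to reactive, electron-poor compounds, which makes them more soluble and ready for export. The cytosolic enzymes fall into classes named by Greek letters, and the microsomal enzymes belong to the unrelated MAPEG family of membrane proteins. Many of the genes are known targets of the transcription factor NRF2, which binds antioxidant response elements, and some respond to the aryl hydrocarbon receptor (AHR). In liver the alpha and mu classes are abundant, and the pi enzyme is known for its high level in many tumours.

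Stretches of 5 members are shown, each taken before a RefSeq start site. For Gsta2 and Mgst1 the stretch lies inside the gene's annotated span. Whether these sequences have a part in the changes was not tested. RefSeq promoter windows of 300 bases (GRCm38.p6) were found for 9 of the 10 genes, and both strands were searched for TGACNNNGC, the core of the antioxidant response element, and GCGTG, the core of the AHR response element. TGACNNNGC was found for 2 of the 9, Gsta3 and Mgst1, against 12.4% of all 32817 windows. GCGTG was found for 4, Gsta2, Gstm1, Gstp1 and Mgst3, against 32.4% of all windows. The 9 genes have 11 windows and count with a match in any of them, while the percentages count single windows. The 2 measures are therefore unlike, in favour of the members. The stretches run 5′ to 3′ on the gene's strand, with the motif match in capitals, in Mgst1 on the opposite strand. Gstm1 and Gstm2 are shown because they shared a pattern across lines, and Gstm2 had neither motif. Gsta2 is shown for its change in AKR, and Gsta3 and Mgst1 for their TGACNNNGC match. The matches of Gstp1 and Mgst3 are not printed.
Gsta2, chr9:78347146-78347166, minus strand, within an annotated exon: gccttactaaagtaGCGTGca
Gsta3, chr1:21240454-21240482, plus strand: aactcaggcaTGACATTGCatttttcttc
Gstm1, chr3:108017974-108018103, minus strand: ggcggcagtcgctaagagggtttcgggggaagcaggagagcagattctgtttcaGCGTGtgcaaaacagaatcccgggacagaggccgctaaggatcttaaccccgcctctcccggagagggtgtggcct
Gstm2, chr3:107986454-107986550, minus strand: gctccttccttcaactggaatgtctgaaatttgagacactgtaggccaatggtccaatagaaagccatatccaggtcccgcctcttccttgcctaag
Mgst1, chr6:138140461-138140489, plus strand, within an annotated exon: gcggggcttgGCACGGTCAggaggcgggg
A match describes letters and not a binding site, and a missing match says only that these letters are not in this window.

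With the B2m guide, most members rose in LLC1 and 3 rose in MC38, while 5 fell in Hepa1-6. A gene was tested in a line where at least 3 of its 6 libraries had a log2 value of 3.5 or more, and it was said to rise or fall at an adjusted p under 0.05 in limma's moderated test, adjusted over all genes tested in the line. In MC38, 3 of 8 tested members rose and 0 fell, where 15.9% of all tested genes rose and 15.8% fell. In LLC1, 7 of 8 rose and 1 fell, against 20.7% and 21.8% of all tested genes. In Hepa1-6, 1 of 10 rose and 5 fell, against 18.6% and 19.2%. In AKR, 6 of 8 passed upward and 0 downward, where 21% and 21.9% of all genes did and nothing is read from that count. The tested members had a median log2 fold change of 0.15 in MC38, beside -0.003 over all its tested genes, and of 0.48 in LLC1, beside 0.009. The medians were 0.62 and 0.006 in AKR, and -0.23 and -0.009 in Hepa1-6.

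**Figure D1:**
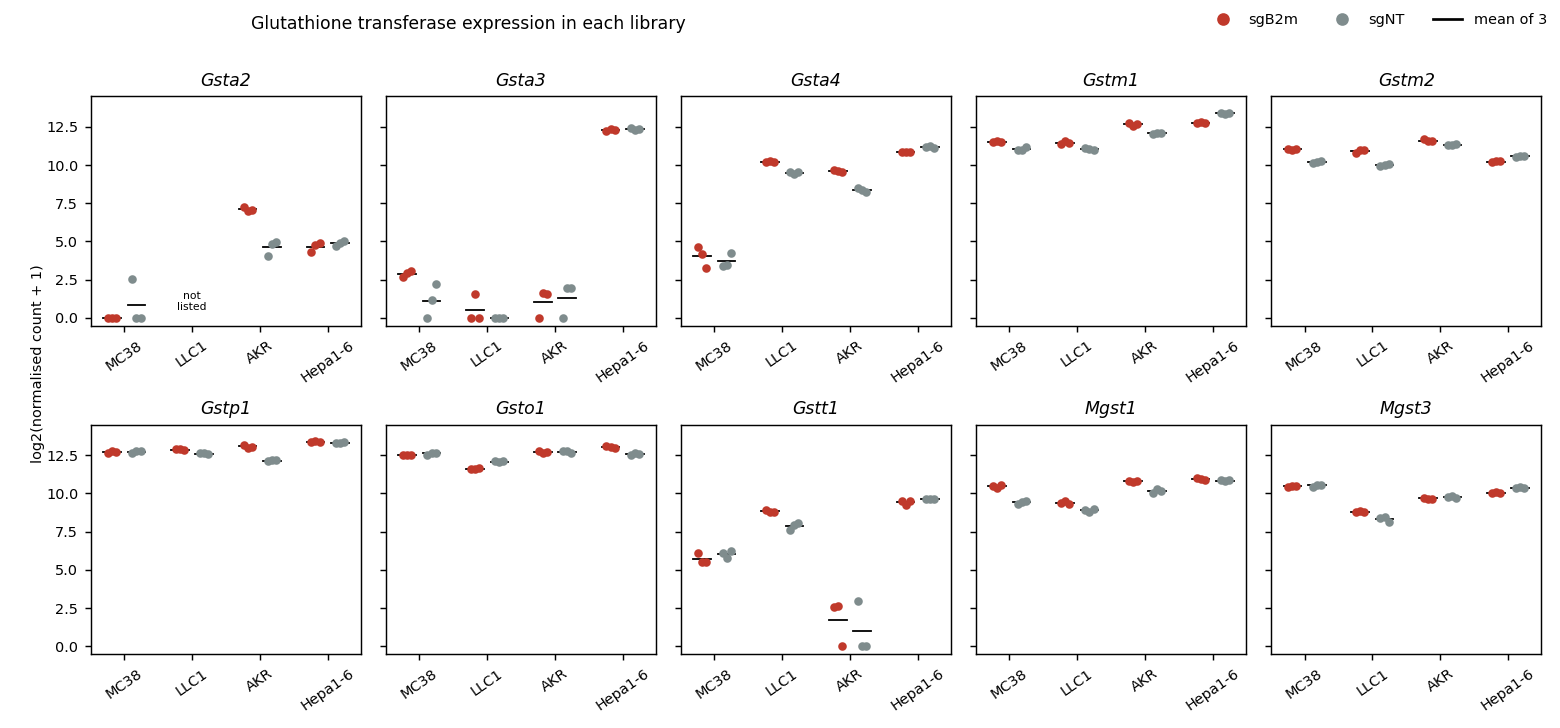
Each point is 1 library, placed by its log2 normalised count on the vertical axis, with sgB2m in red to the left of sgNT in grey for each line on the horizontal axis, and a black bar at the mean of 3 libraries. Gsta2 stands apart in AKR, where the sgB2m libraries lay between 125 and 155 normalised counts and the sgNT libraries between 15.4 and 30.8, and Gsta3 is high in Hepa1-6 alone.

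Gsta2 encodes an alpha-class enzyme, a class known for reducing lipid hydroperoxides. It lies on the minus strand of chromosome 9 from 78331018 to 78355788 (ENSMUSG00000057933, GENCODE on mm10). In AKR it had 155, 125 and 134 normalised counts in sgB2m and 15.4, 27.2 and 30.8 in sgNT. The groups did not overlap, and the log2 fold change was 2.50 ± 0.268 (SE), or 5.65-fold, on 421 against 74 reads summed over the 3 libraries. In Hepa1-6, the liver tumour line, it had 19, 26.3 and 28.2 normalised counts in sgB2m and 24.6, 29.5 and 32.4 in sgNT, which overlapped (log2 fold change -0.23 ± 0.354, adjusted p = 0.651). It was under the test's limit in MC38, with 0 reads in sgB2m and 5 in sgNT, and it has no entry in the LLC1 table.

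Reads of Gsta2 could not always be told from those of its relatives. Of the 100-base stretches in its annotated transcripts, 28.4% also occurred in Gsta1, Gm10639 or Gm3776, and Gsta1 alone held 18.2%. The relatives stood higher in AKR sgB2m too. Gsta1, another alpha-class enzyme, had 236, 233 and 238 normalised counts in AKR sgB2m and 48.5, 46.7 and 60.7 in sgNT (log2 fold change 2.17 ± 0.158). Gm3776, found by the sequence search, had 260, 259 and 223 in sgB2m and 45.2, 41.8 and 56.8 in sgNT (2.35 ± 0.168). Gm10639 had 87 reads in sgB2m and 7 in sgNT. Because these relatives share stretches with Gsta2, their higher values are not separate support for its rise. How the reads were divided among these 4 genes is not given in the sources used here, so the value of each single gene is uncertain. In Hepa1-6 Gsta1 had a log2 fold change of 0.28 ± 0.25 and Gm3776 of 0.03 ± 0.367.

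Gsta3 is an alpha-class gene whose mouse enzyme is known for detoxifying the epoxide of aflatoxin. It lies on the plus strand of chromosome 1 from 21240589 to 21265661 and was tested in Hepa1-6 only. There it had 4846, 5277 and 4967 normalised counts in sgB2m and 5439, 5160 and 5279 in sgNT. The groups overlapped, and the log2 fold change was -0.07 ± 0.0386 (adjusted p = 0.152). In the other lines it was near 0, where sgB2m and sgNT summed to 19 and 6 reads for MC38, 2 and 0 for LLC1, and 4 and 6 for AKR. The gene Gm28836 overlaps it on the other strand, and the sources used here do not say whether the strand-specific reads were counted by strand.

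Gsta4, the alpha-class enzyme known for conjugating hydroxynonenal, a product of lipid peroxidation, rose in LLC1 and fell in Hepa1-6. It lies on the plus strand of chromosome 9 from 78182774 to 78209349 and shared no 100-base stretch with another gene. In LLC1 it had 1182, 1213 and 1165 normalised counts in sgB2m and 766, 680 and 750 in sgNT (log2 fold change 0.70 ± 0.0654, adjusted p = 9.55e-07). In Hepa1-6 it had 1874, 1860 and 1835 in sgB2m and 2359, 2392 and 2260 in sgNT (-0.33 ± 0.047, adjusted p = 4.18e-05). The groups were separate in both lines, in opposite directions. In AKR it had 817, 795 and 741 in sgB2m and 357, 335 and 295 in sgNT, 2.39-fold higher in sgB2m. MC38 held few reads of it, 47 in sgB2m and 43 in sgNT, and the groups overlapped (0.32 ± 0.523, adjusted p = 0.683).

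Gstm1 and Gstm2, neighbouring mu-class genes whose products conjugate a broad range of electrophiles, rose in MC38 and LLC1 and fell in Hepa1-6. They lie on the minus strand of chromosome 3, Gstm1 from 108012255 to 108017973 (ENSMUSG00000058135) and Gstm2 from 107981702 to 107986453 (ENSMUSG00000040562), 25.8 kb apart. Of the 8 members tested in these 3 lines, 2 had this pattern, where 1.4% of the 12908 genes tested in all 3 did. The pattern was taken from these 2 neighbouring genes after their values were seen, so the count is a description and no test.

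Gstm1 had 2883, 3025 and 2935 normalised counts in MC38 sgB2m and 2012, 2043 and 2313 in MC38 sgNT (log2 fold change 0.48 ± 0.0643, adjusted p = 0.000427). In LLC1 it had 2664, 3020 and 2806 in sgB2m and 2248, 2143 and 2045 in sgNT (0.40 ± 0.0534, adjusted p = 3.04e-05). The lowest sgB2m library was above the highest sgNT library in both lines. In Hepa1-6 it had 6790, 7219 and 6936 in sgB2m and 10648, 10404 and 10936 in sgNT (-0.61 ± 0.0316, adjusted p = 5.47e-10). There every sgB2m library was below every sgNT library, a 1.53-fold fall. In AKR it had 6883, 6098 and 6461 in sgB2m and 4138, 4379 and 4376 in sgNT, a log2 fold change of 0.59 ± 0.0509.

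Gstm2 had 2132, 2070 and 2169 normalised counts in MC38 sgB2m and 1101, 1158 and 1218 in MC38 sgNT (log2 fold change 0.87 ± 0.0628, adjusted p = 7.54e-06). In LLC1 it had 1795, 1998 and 2009 in sgB2m and 995, 1022 and 1081 in sgNT (0.90 ± 0.0598, adjusted p = 2.93e-08). Both rises were larger in size than those of Gstm1 in the same line, 1.83-fold in MC38 and 1.87-fold in LLC1, a difference that was not tested. In Hepa1-6 it had 1182, 1211 and 1219 in sgB2m and 1491, 1578 and 1542 in sgNT (-0.35 ± 0.0557, adjusted p = 0.00012). In AKR it had 3329, 3067 and 3001 in sgB2m and 2575, 2559 and 2607 in sgNT, a log2 fold change of 0.28 ± 0.0505. The groups were separate in all 4 lines. Of the 100-base stretches of Gstm1, 5.86% occurred elsewhere, and of those of Gstm2 0.357% did.

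**Figure D2:**
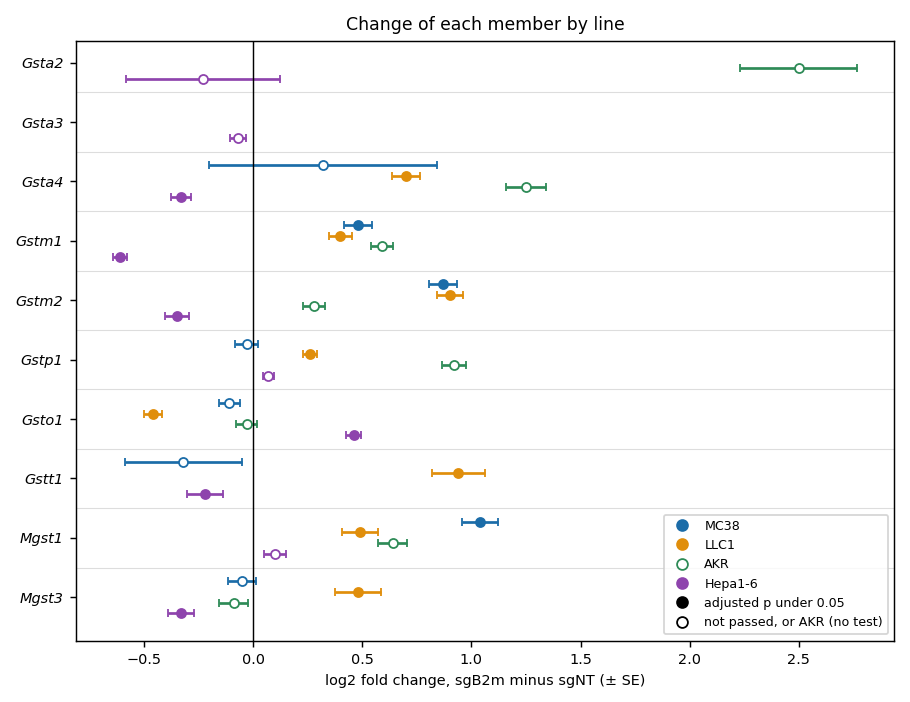
Points give the log2 fold change (sgB2m minus sgNT) of each member on the horizontal axis with its SE, 1 row per gene and 1 colour per line. They are filled where the adjusted p was under 0.05 and open where it was not. All AKR points are open, as AKR values are a description given with no p-value. Gstm1 and Gstm2 lie right of 0 in MC38, LLC1 and AKR and left of 0 in Hepa1-6, while Gsto1 has the opposite order, at -0.46 in LLC1 and 0.46 in Hepa1-6.

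Around the mu-class cluster the genes did not all move with Gstm1 and Gstm2. Gstm5, whose middle lies 115.0 kb below Gstm1 in coordinates, fell in MC38 (log2 fold change -0.31 ± 0.0675, adjusted p = 0.00601) and rose in Hepa1-6 (0.42 ± 0.101, adjusted p = 0.00379), in both lines against Gstm1 and Gstm2. Its values had their sign in LLC1, where it did not pass (0.25 ± 0.104, adjusted p = 0.0701), and in AKR (0.37 ± 0.0918). In LLC1 Gstm4 (0.53 ± 0.149, adjusted p = 0.0104) and Gstm7 (0.56 ± 0.188, adjusted p = 0.0272) rose as Gstm1 and Gstm2 did. The next tested gene above the cluster in MC38, Ampd2, an AMP deaminase, had -0.05 ± 0.0668 (adjusted p = 0.634). Ampd2 fell in LLC1 (-0.20 ± 0.0485, adjusted p = 0.00407). It stood at -0.23 ± 0.0409 in AKR and at 0.02 ± 0.055 in Hepa1-6 (adjusted p = 0.837). Over the other tested genes of chromosome 3, the median log2 fold change was 0.09 for MC38, 0.02 for LLC1, -0.04 for AKR and -0.00 for Hepa1-6.

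**Figure D3:**
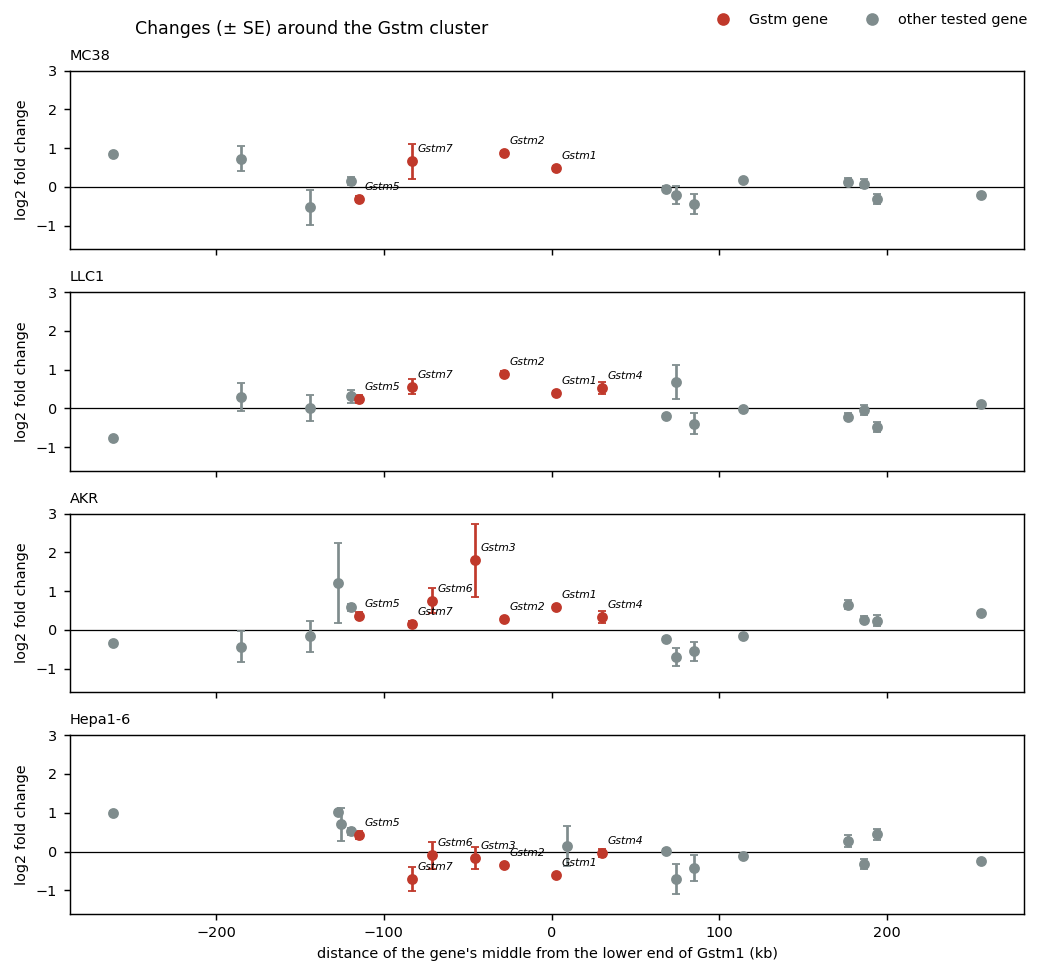
Log2 fold change (sgB2m minus sgNT, with SE) on the vertical axis against the distance in kb of each tested gene's middle from the lower end of Gstm1, with 1 panel per line and Gstm genes in red. In Hepa1-6 Gstm5 stands at 0.42 and Gstm1 at -0.61, and in MC38 Gstm5 stands at -0.31 and Gstm2 at 0.87.

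Gstp1, the pi-class enzyme, also known as an inhibitor of the kinase JNK, rose in LLC1 and was not past the threshold in MC38 or Hepa1-6. Its gene is on the minus strand of chromosome 19 from 4035407 to 4037985. In LLC1 it had 7551, 7602 and 7380 normalised counts in sgB2m and 6351, 6315 and 6165 in sgNT (log2 fold change 0.26 ± 0.0309, adjusted p = 1.02e-05), 1.2-fold higher with no overlap. In MC38 it had 6416, 6973 and 6670 in sgB2m and 6411, 6864 and 7157 in sgNT (-0.03 ± 0.0532, adjusted p = 0.752). In Hepa1-6 it had 10659, 10931 and 10551 in sgB2m and 10204, 10033 and 10393 in sgNT (0.07 ± 0.0271, adjusted p = 0.0566). The Hepa1-6 groups did not overlap, and the value passed at an adjusted p of 0.0383 after quantile normalisation and of 0.0496 without sgB2m replicate 3, in a range of 0.0383 to 0.261 over all settings tried. In AKR Gstp1 had 9417, 8113 and 8509 in sgB2m and 4434, 4584 and 4679 in sgNT, 1.9-fold higher in sgB2m.

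Of the 100-base stretches of Gstp1, 25.1% also occurred in Gstp2 or the pseudogene Gstp-ps, so the reads of these genes can be mixed. Gstp2 had 1666, 1349 and 1481 normalised counts in AKR sgB2m and 753, 829 and 776 in AKR sgNT (log2 fold change 0.93 ± 0.0806), close to the 0.92 ± 0.0546 of Gstp1. In LLC1 Gstp2 rose with 0.35 ± 0.0702 (adjusted p = 0.00107).

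Gsto1, the omega-class enzyme, which reduces dehydroascorbate and removes glutathione from proteins, fell in LLC1 and rose in Hepa1-6, the reverse of Gstm1 and Gstm2. It lies on the plus strand of chromosome 19 from 47854970 to 47864790 (ENSMUSG00000025068), where Cfap43 overlaps it on the other strand. In LLC1 it had 3056, 3161 and 3310 normalised counts in sgB2m and 4398, 4280 and 4407 in sgNT (log2 fold change -0.46 ± 0.04, adjusted p = 4.85e-07). In Hepa1-6 it had 8649, 8570 and 8184 in sgB2m and 5944, 6372 and 6116 in sgNT (0.46 ± 0.0344, adjusted p = 3.85e-08). The groups were separate in both lines. In MC38 it had 5896, 5820 and 5786 in sgB2m and 5926, 6506 and 6508 in sgNT (-0.11 ± 0.0488, adjusted p = 0.108). Those groups did not overlap either, by a narrow gap, and without sgNT replicate 1 the change was -0.16 at an adjusted p of 0.0074, in a range of 0.0074 to 0.298 over all settings tried. In AKR it had 6931, 6309 and 6681 in sgB2m and 6926, 6915 and 6472 in sgNT, which overlapped. Its neighbour Gsto2, 0.744 kb away, also rose in Hepa1-6, where it averaged 57.5 ± 7.73 normalised counts in sgB2m and 21.8 ± 7.93 in sgNT (SD, n = 3 each; limma log2 fold change 1.41 ± 0.342, adjusted p = 0.00405).

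Gstt1, the theta-class enzyme known for metabolising small halogenated compounds, rose in LLC1. The gene spans the minus strand of chromosome 10 from 75783813 to 75798584. LLC1 libraries had 485, 445 and 431 normalised counts in sgB2m and 196, 244 and 272 in sgNT (log2 fold change 0.94 ± 0.122, adjusted p = 2.24e-05), with no overlap. Hepa1-6 libraries had 711, 617 and 745 in sgB2m and 792, 801 and 812 in sgNT, and the fall passed narrowly (-0.22 ± 0.0828, adjusted p = 0.0494). It missed the threshold under 8 of 14 other settings, including 5 of the 6 that left out 1 library, and without sgB2m replicate 2, the lowest library, it was -0.14 (adjusted p = 0.217, in a range of 0.0258 to 0.217). In MC38 the groups overlapped at 68.3, 45.6 and 44.7 in sgB2m and 67, 54.9 and 74 in sgNT (-0.32 ± 0.267, adjusted p = 0.406). AKR had 10 reads in sgB2m and 6 in sgNT, too few to test.

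The next theta-class gene, Gstt3, 2.4 kb from Gstt1, fell 15.5-fold in MC38 to 8.77 ± 2.71 normalised counts in sgB2m, against 148 ± 33 in sgNT (SD, n = 3 each; limma log2 fold change -3.95 ± 0.336, adjusted p = 2.2e-05). In LLC1 Gstt3 rose with Gstt1, to 288 ± 23.7 in sgB2m against 157 ± 31 in sgNT (0.88 ± 0.148, adjusted p = 0.000233). The adjacent pair thus had like values in LLC1 and unlike values in MC38.

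Mgst1, a microsomal enzyme of the endoplasmic reticulum and outer mitochondrial membrane with peroxidase activity, rose in MC38 and LLC1. The gene occupies the plus strand of chromosome 6 from 138140316 to 138156755 (ENSMUSG00000008540). In MC38 it had 1422, 1323 and 1485 normalised counts in sgB2m and 628, 690 and 737 in sgNT (log2 fold change 1.04 ± 0.0839, adjusted p = 1.52e-05), a 2.06-fold rise. LLC1 libraries had 662, 719 and 637 in sgB2m and 485, 448 and 509 in sgNT (0.49 ± 0.0825, adjusted p = 0.000258). Groups were separate in both lines. Hepa1-6 libraries had 2028, 1980 and 1907 in sgB2m and 1856, 1782 and 1883 in sgNT, separate but not past the threshold (0.10 ± 0.0501, adjusted p = 0.14). In AKR it had 1837, 1727 and 1814 in sgB2m and 1057, 1235 and 1164 in sgNT, 1.56-fold higher in sgB2m.

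Mgst3, a microsomal enzyme with glutathione peroxidase activity, rose in LLC1 and fell in Hepa1-6. Its locus is on the minus strand of chromosome 1, from 167371966 to 167393841. LLC1 libraries had 440, 463 and 444 normalised counts in sgB2m and 333, 360 and 279 in sgNT (log2 fold change 0.48 ± 0.105, adjusted p = 0.00204). Hepa1-6 libraries had 1033, 1091 and 1065 in sgB2m and 1327, 1393 and 1303 in sgNT (-0.33 ± 0.0602, adjusted p = 0.000395). The groups of both lines were separate. In MC38 they overlapped, at 1402, 1426 and 1467 in sgB2m and 1396, 1528 and 1532 in sgNT (-0.05 ± 0.0645, adjusted p = 0.586), on a chromosome whose 1012 other tested genes had a median of 0.23. In AKR they overlapped as well, with a log2 fold change of -0.09 ± 0.0661.

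The change of each of the 8 members tested in MC38, LLC1 and Hepa1-6 differed between these 3 lines in limma's F test of the interaction of line and guide over 18 libraries, where 58.1% of all genes tested did. The adjusted p was 7.91e-11 for Gstm2, 5.92e-10 for Gsto1 and 6.48e-10 for Gstm1, 8.65e-07 for Mgst1, 1.3e-05 for Mgst3, 0.000155 for Gstt1 and 0.000542 for Gstp1. It was 0.0419 for Gsta4, which missed the threshold under 17 of 22 other settings, at 0.0577 to 0.121. Among these was the omission of any 1 LLC1 or Hepa1-6 library, and the range over the other settings began at 0.00123. The test covered the 3 lines at once, and MC38 held few reads of Gsta4, 47 in sgB2m and 43 in sgNT. LLC1 and Hepa1-6 were not tested as a pair.

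Levels of different genes were compared per kb of merged annotated exons, within a line only, since each line was normalised alone. This length counts all annotated exons and so lowers the value of a gene with long or alternative exons, such as Gsta3 with 4344 bases. Gstp1 was highest in sgB2m of every line, at 4319 ± 180 normalised counts per kb for MC38, 4852 ± 75.3 for LLC1, 5607 ± 432 for AKR and 6921 ± 126 for Hepa1-6 (SD, n = 3 each). In sgNT it was also highest in MC38 at 4400 ± 243 and in LLC1 at 4055 ± 63.7. In AKR sgNT Gsto1 led at 3347 ± 128, ahead of Gstp1 at 2949 ± 80 and Gstm1 at 2918 ± 93.8, which did not differ beyond their spread. In Hepa1-6 sgNT Gstm1 led at 7239 ± 181, ahead of Gstp1 at 6596 ± 116. The leading gene of AKR and Hepa1-6 thus was another one in sgB2m than in sgNT.

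Lower in the order, Mgst3 at 1305 ± 30 and Gstm2 at 1265 ± 30 did not differ beyond their spread in MC38 sgB2m, whereas in MC38 sgNT Mgst3 stood at 1354 ± 70.4 and Gstm2 at 690 ± 34.8. Gsta3 took 5.36% ± 0.166 of the summed per-kb level in Hepa1-6 sgB2m and 5.18% ± 0.146 in Hepa1-6 sgNT, and at most 0.012% on average in any group of the other lines. Gsta4 took 8.17% ± 0.123 in LLC1 sgB2m and 6.05% ± 0.351 in LLC1 sgNT, and 0.105% ± 0.0496 in MC38 sgB2m and 0.0862% ± 0.0281 in MC38 sgNT. The alpha members were thus mostly Gsta4 in LLC1 and AKR, Gsta4 and Gsta3 in Hepa1-6, and low in MC38. Gsta2, the gene with the largest fold change, took 0.668% ± 0.0355 in AKR sgB2m and 0.168% ± 0.0545 in AKR sgNT.

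The sum of the 10 genes per kb was 12524 ± 171 in sgB2m and 11400 ± 622 in sgNT of MC38, and 11473 ± 251 in sgB2m and 9550 ± 108 in sgNT of LLC1 (SD, n = 3 each). In AKR it was 17529 ± 1008 in sgB2m and 12398 ± 179 in sgNT, and in Hepa1-6 21609 ± 357 in sgB2m and 23537 ± 195 in sgNT. The sgB2m libraries lay above the sgNT libraries in MC38, LLC1 and AKR and below them in Hepa1-6, without overlap.

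**Figure D4:**
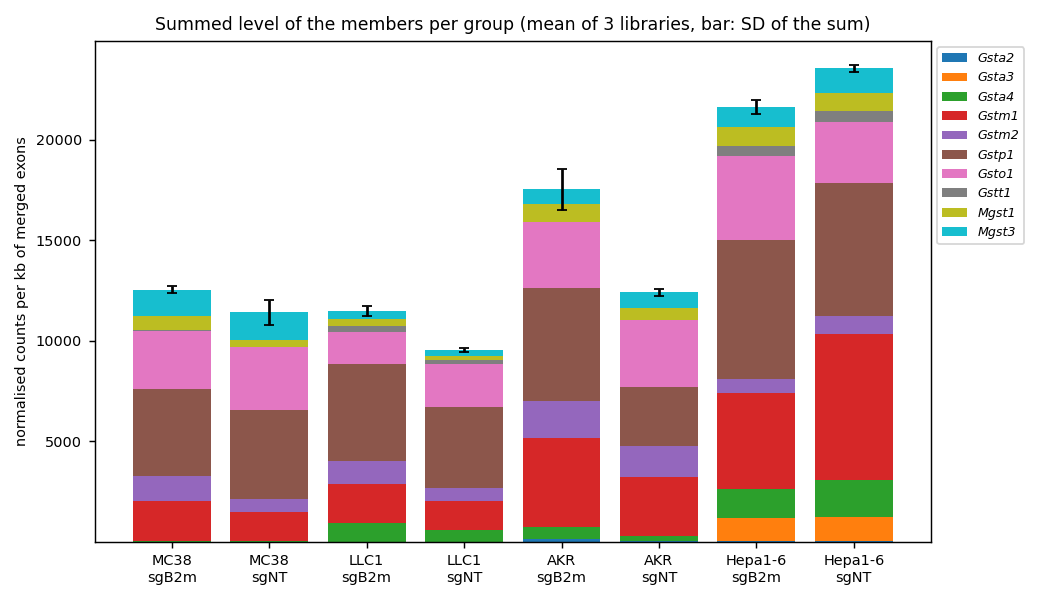
Stacked bars give the mean normalised count per kb of merged exons of each member in each group of 3 libraries, with the SD of the sum as the error bar and sgB2m left of sgNT for each line. The sum is lower in sgB2m in Hepa1-6 only, where the Gstm1 part shrank to 4740 in sgB2m against 7239 in sgNT.

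Bulk RNA cannot tell fewer cells of a kind from less RNA per cell. Some marker lists differed between the groups, and their directions did not all follow those of the members. In Hepa1-6 the 7 hepatocyte markers summed to between 327442 and 330150 normalised counts in sgB2m and between 360636 and 366175 in sgNT. In AKR the 6 myeloid markers summed to 6842 to 7225 in sgB2m and 2463 to 2585 in sgNT, led by the lysosomal gene Cd68. Adgre1 had no entry there. In MC38 the 5 fibroblast markers summed to 42555 to 44257 in sgB2m and 26358 to 28194 in sgNT. In LLC1 they summed to 5169 to 5459 in sgB2m and 3183 to 3320 in sgNT. Other lists went the opposite way. The fibroblast markers summed to 864 to 912 in sgB2m and 1151 to 1204 in sgNT of AKR. In Hepa1-6 they summed to 692 to 882 in sgB2m and 447 to 558 in sgNT. The myeloid markers of LLC1 summed to 218 to 303 in sgB2m and 383 to 469 in sgNT. The mitochondrial share of reads was 4.19% ± 0.11 for sgB2m against 5.1% ± 0.113 for sgNT in Hepa1-6, and 4.04% ± 0.00923 for sgB2m against 3.52% ± 0.0273 for sgNT in AKR (SD, n = 3 each). The part of these differences in the changes of the members was not tested.

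The counts of called genes in the lists that follow stand beside these shares over all tested genes: 15.9% rose and 15.8% fell in MC38, 20.7% rose and 21.8% fell in LLC1, and 18.6% rose and 19.2% fell in Hepa1-6, while in AKR 21% passed upward and 21.9% downward. A list count near these shares is no result about the list, and no list was tested as a set.

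Among 22 other glutathione transferases and MAPEG relatives, 1 of 12 tested rose and 3 fell in MC38, 5 of 12 rose and 1 fell in LLC1, and 4 of 15 rose and 0 fell in Hepa1-6. In AKR 7 of 16 passed upward and 1 downward. Their median log2 fold change was -0.12 for MC38, 0.23 for LLC1, 0.35 for AKR and 0.03 for Hepa1-6. Mgst2, a leukotriene C synthase, rose in MC38 (0.84 ± 0.109, adjusted p = 0.000346), as its relative Mgst1 did. Ptges, the inducible prostaglandin E synthase, rose in Hepa1-6 (0.86 ± 0.19, adjusted p = 0.00212), and Gstk1, the mitochondrial kappa-class enzyme, stood at 0.73 ± 0.186 in AKR.

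Slc7a11 and Chac1, on the supply and the breakdown side of glutathione, fell in LLC1 and rose in Hepa1-6. Of the genes of glutathione synthesis, recycling and breakdown, 3 of 19 rose and 4 fell in MC38, 3 of 20 rose and 9 fell in LLC1, 8 of 20 rose and 3 fell in Hepa1-6, and 7 of 20 passed upward and 8 downward in AKR. The MC38 counts were near the 15.9% and 15.8% of all tested genes. This list had medians of -0.00 for MC38, -0.14 for LLC1, 0.08 for AKR and 0.02 for Hepa1-6. Slc7a11, the cystine importer that feeds glutathione synthesis, fell in LLC1 to 1949 ± 38.4 normalised counts in sgB2m, against 3945 ± 209 in sgNT (limma log2 fold change -1.02 ± 0.0461, adjusted p = 5.45e-10). In Hepa1-6 it rose to 19038 ± 783 in sgB2m, against 9768 ± 593 in sgNT (0.96 ± 0.039, adjusted p = 3.22e-11). Chac1, which degrades glutathione, moved the same ways, with -1.61 ± 0.0832 in LLC1 (adjusted p = 2.28e-09) and 1.41 ± 0.0848 in Hepa1-6 (adjusted p = 3.45e-09). In these lines both genes moved against Gstm1 and Gstm2 and with Gsto1. In MC38 Slc7a11 rose (0.49 ± 0.113, adjusted p = 0.00842), as Gstm1 and Gstm2 did. In AKR Gss, the glutathione synthetase, averaged 3020 ± 114 in sgB2m and 1350 ± 42.2 in sgNT. In MC38 the count fell to 4 called genes without sgB2m replicate 3 or without sgNT replicate 2.

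Of the peroxidases and glyoxalases, 0 of 6 rose and 3 fell in MC38, 2 of 6 rose and 3 fell in LLC1, 1 of 6 rose and 2 fell in Hepa1-6, and 3 of 7 passed upward and 2 downward in AKR, on too few genes for a share to be read closely against 15.9% and 15.8% in MC38 or 20.7% and 21.8% in LLC1. The 5 called in LLC1 were 3 without sgB2m replicate 2 or sgNT replicate 1, and the 5 in AKR were 2 or 3 without sgB2m replicate 3 or any 1 sgNT library. Esd, an esterase that releases glutathione in formaldehyde detoxification, fell in MC38 (-0.43 ± 0.048, adjusted p = 0.000129) and LLC1 (-0.38 ± 0.0346, adjusted p = 7.44e-07) and rose in Hepa1-6 (0.24 ± 0.031, adjusted p = 2.05e-05). Gpx1, the main cytosolic glutathione peroxidase, fell in LLC1 (-0.48 ± 0.0733, adjusted p = 9.62e-05). The list medians were -0.21 for MC38, -0.13 for LLC1, 0.06 for AKR and -0.06 for Hepa1-6.

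Of the exporters of glutathione conjugates, 2 of 6 rose and 1 fell in MC38, 1 of 6 rose and 2 fell in LLC1, 3 of 8 rose and 0 fell in Hepa1-6, and 1 of 7 passed upward and 3 downward in AKR. A single gene of 6 is near the share over all genes of MC38 and LLC1. The medians were 0.12, -0.17, 0.18 and -0.17 in MC38, LLC1, Hepa1-6 and AKR. Abcc1, an export pump of glutathione conjugates, fell in MC38 (-0.31 ± 0.0584, adjusted p = 0.00281) and LLC1 (-0.25 ± 0.0345, adjusted p = 3.66e-05). Abcc4 rose in MC38 (0.61 ± 0.0895, adjusted p = 0.00072) and Hepa1-6 (0.36 ± 0.0371, adjusted p = 1.63e-06) and fell in LLC1 (-0.34 ± 0.0577, adjusted p = 0.000242). In MC38 the 3 called exporters were 5 without sgNT replicate 1.

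The NRF2 list held NRF2, its regulators and partners, and known targets. In Hepa1-6 5 of its 25 genes rose and 15 fell, with a median log2 fold change of -0.12. Over all tested genes of Hepa1-6, 18.6% rose and 19.2% fell. In MC38 8 rose and 7 fell with a median of 0.02, where 15.9% and 15.8% of all genes did. In LLC1 10 rose and 7 fell with a median of 0.06, where 20.7% and 21.8% did. In AKR 16 passed upward and 3 downward, with a median of 0.19. In Hepa1-6 Prdx1, a peroxiredoxin, fell (-0.54 ± 0.0212, adjusted p = 2.09e-11) and Mafk, a small Maf partner of NRF2, rose (0.81 ± 0.0461, adjusted p = 1.72e-09). In MC38 the quinone reductase Nqo1 averaged 9319 ± 7.04 in sgB2m and 4740 ± 178 in sgNT (SD, n = 3 each; limma log2 fold change 0.98 ± 0.0432, adjusted p = 2.94e-07). The epoxide hydrolase Ephx1 rose as well in MC38 (1.18 ± 0.0924, adjusted p = 1.23e-05), while Cbr3 fell (-0.85 ± 0.205, adjusted p = 0.0108). In LLC1 the glucose pathway enzymes Ugdh (0.74 ± 0.0342, adjusted p = 7.2e-10) and Pgd (0.71 ± 0.0381, adjusted p = 3.47e-09) rose. Maff fell there (-0.72 ± 0.0958, adjusted p = 3.01e-05). In AKR Nqo1 averaged 8560 ± 234 in sgB2m and 3591 ± 152 in sgNT. The 15 called in MC38 were 9 without sgB2m replicate 3, 8 without sgNT replicate 2 and 7 without the intensity trend, which left 12 called in Hepa1-6.

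Of the AHR list, 6 of 8 tested genes rose and 0 fell in MC38, where 15.9% of all tested genes rose and 15.8% fell, and the median was 0.62. Rxra (0.03 ± 0.0623, adjusted p = 0.747) and Ugt1a7c (0.54 ± 0.195, adjusted p = 0.0607) did not pass. Ahr itself averaged 1475 ± 43.8 normalised counts in sgB2m and 357 ± 44.3 in sgNT there (SD, n = 3 each; limma log2 fold change 2.05 ± 0.101, adjusted p = 5.8e-07). Its known targets Aldh3a1 (1.25 ± 0.0568, adjusted p = 3.31e-07) and Ugt1a6b (1.63 ± 0.201, adjusted p = 0.000246) rose too. The list holds 14 genes, and Cyp1a1, Cyp1b1 and Ahrr were not among the 8 tested in MC38. The transcripts of Ugt1a6b and its sister genes share exons, so their reads can be mixed. In LLC1 3 of 9 rose and 2 fell, among them Ahr (-0.58 ± 0.0828, adjusted p = 5.81e-05), with a median of -0.02. In Hepa1-6 4 of 11 rose and 2 fell with a median of -0.02, and in AKR 1 of 8 passed upward, which was Ahr, and 1 downward, with a median of -0.09. The 2 in AKR were 1 without any 1 of the sgNT libraries.

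Few transcription factors of hepatocytes could be tested outside Hepa1-6. In MC38 1 of 3 rose and 1 fell, in LLC1 1 of 4 rose and 2 fell, in Hepa1-6 3 of 11 rose and 2 fell, and in AKR 0 of 4 passed upward and 1 downward. The medians were -0.20, -0.30, 0.09 and -0.11 in that order. In Hepa1-6 Cebpb (0.50 ± 0.0566, adjusted p = 3.99e-06) and Nr5a2 (0.81 ± 0.0971, adjusted p = 7.5e-06) rose, while Foxa1 fell (-0.56 ± 0.162, adjusted p = 0.0124). Leaving out 1 library left 1 called in MC38 for sgB2m replicates 1, 2 and 3 and sgNT replicate 3, and 1 in LLC1 for sgNT replicates 1 and 3. The AKR count was 2 without sgB2m replicate 2.

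**Figure D5:**
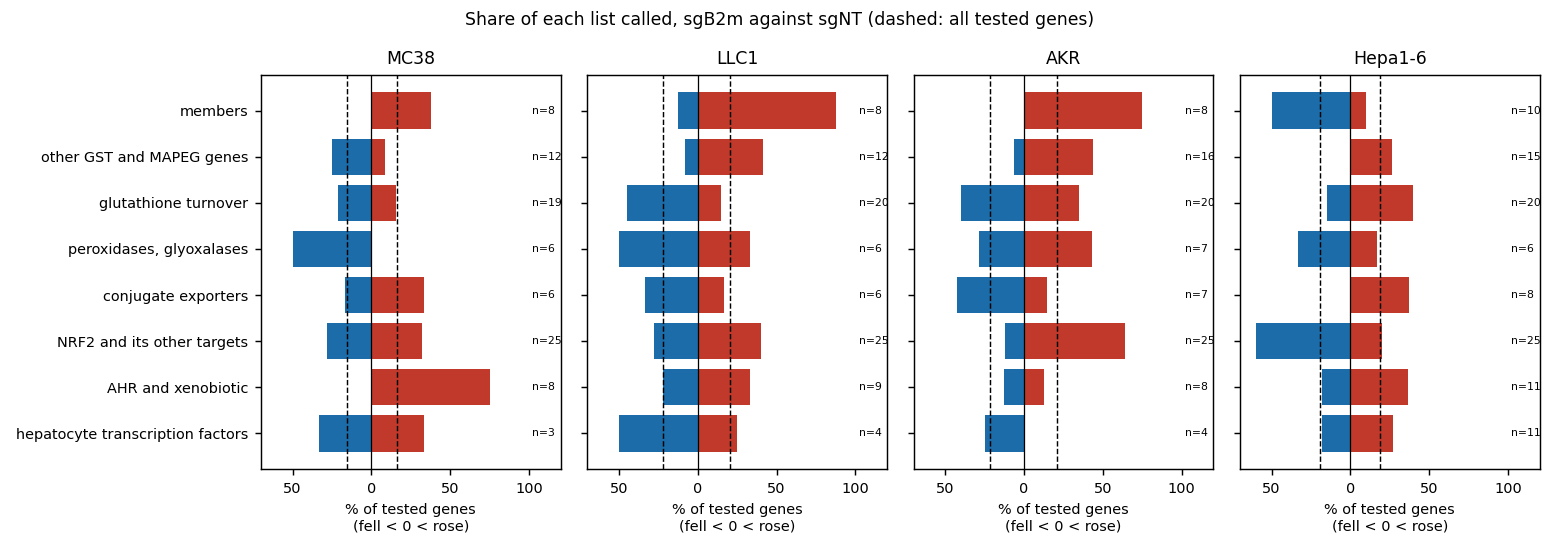
Bars give the share of the tested genes of each list that passed upward (red, right of 0) and downward (blue, left of 0) in sgB2m against sgNT, in % on the horizontal axis, with 1 panel per line, n the number tested and dashed lines at the share over all genes. In Hepa1-6 the downward bars of the members, 5 of 10, and of the NRF2 list, 15 of 25, reach past the dashed line at 19.2%, and in AKR all bars are a description.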

How the data were processed

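The libraries were strand-specific and paired-end, made from total RNA, per the labels' protocols. The submitters' processing notes name FastQC 0.11.5, STAR, DESeq2 and the genome build mm10, and the gene counter, its annotation and its use of the strand are not given in the sources used here. The deposited values are log2 normalised counts, and they were taken as log2(count divided by a size factor + 1), because each library returned whole multiples of 1 step within 0.05 reads. The added 1 draws fold changes of low genes toward 0. Read numbers cover counting error only.

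Each line was fitted alone in R 4.3.3 with limma 3.58.1, using an intensity trend, two-sided tests and Benjamini-Hochberg adjustment over all tested genes of the line. The tests took genes that reached a log2 value of 3.5 in 3 or more libraries of the line. Fold changes are sgB2m minus sgNT with SE, n = 3 each. Positions, lengths and shared stretches came from GENCODE M21 and promoters from RefSeq. The alternatives were no filter, a stricter filter at 5, a pseudocount of 8, quantile normalisation, median centring, no trend, limma voom on recovered reads, a replicate block and leaving out each library.

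The members and lists were chosen with earlier results of these data known. All members were named, with at most 3 called genes per list and line by size of change and the nearest tested neighbours. Gm3776 and Gstp-ps were named after the sequence search. The scripts were tested on simulated data.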

Additional observations from a re-analysis of the deposited data

Results flagged for a closer look

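Each of the 8 members tested in MC38, LLC1 and Hepa1-6 is listed because its change in sgB2m against sgNT differed between the 3 lines in limma's F test of the interaction. The adjusted p was 7.91e-11 for Gstm2 (log2 fold changes 0.87, 0.90 and -0.35 in MC38, LLC1 and Hepa1-6), 5.92e-10 for Gsto1 (-0.11, -0.46 and 0.46) and 6.48e-10 for Gstm1 (0.48, 0.40 and -0.61). It was 8.65e-07 for Mgst1 (1.04, 0.49 and 0.10), 1.3e-05 for Mgst3 (-0.05, 0.48 and -0.33), 0.000155 for Gstt1 (-0.32, 0.94 and -0.22) and 0.000542 for Gstp1 (-0.03, 0.26 and 0.07). It was 0.0419 for Gsta4 (0.32, 0.70 and -0.33), which missed the threshold under 17 of 22 other settings. Such a difference was common in these data, at 58.1% of the 12908 genes tested.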

How the results depend on the processing

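The number of members called changed by less than 1.5 times under every alternative run, as did the number of all genes called. Little sign of pairing by replicate number was seen, as the correlation of same-numbered libraries ranged from -0.226 to 0.146 and passed 0.1 in 1 of 12 pairs. With 3 libraries per group, this cannot exclude pairing. With the replicate block, the called members were 3 for MC38, 8 for LLC1 and 5 for Hepa1-6, and 7 differed between lines. In AKR, whose values helped to choose the members, 6 passed with and without the block, from which nothing is read. Under the block the called genes were 5120 for MC38, 6306 for LLC1, 6494 for AKR and 5589 for Hepa1-6, against 5251, 6503, 6815 and 5637 without it, and 7278 against 7503 differed between lines. The block took the calls of Gstt1 in Hepa1-6 (adjusted p = 0.0515) and of the Gsta4 difference between lines (adjusted p = 0.111). Without 1 library at a time, the change of Gstp1 in MC38, which was never called, ranged from -0.07 to 0.01, and it turned to 0.00 without sgB2m replicate 1 and 0.01 without sgNT replicate 3. Gsta3 in Hepa1-6 was called after median centring (adjusted p = 0.0452) and without sgB2m replicate 2 (adjusted p = 0.0395), in a range of 0.0395 to 0.43. In AKR quantile normalisation moved Gstm1 to 0.67 and Gsto1 to 0.08. Of the counts of called list genes, 361 stayed within 1.5 times and 31 did not, on alternatives added after the data were seen. No scaling moved the median of all genes by more than 0.040 in size. Yet median centring moved the upward share of all called genes from 48.9% to 42.2% in AKR and from 49.2% to 43.1% in Hepa1-6. This share went from 50.2% to 53.2% in MC38 and from 48.7% to 46% in LLC1. The causes were not tested. Genes with few reads, such as Gsta2 outside AKR and Gsta4 in MC38, limit what can be detected.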
